A study of Mus musculus with 14 samples.

Results

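Cholesterol synthesis in liver runs from acetyl-CoA through mevalonate, the isoprenoids, squalene and lanosterol to cholesterol. The genes of this route, with those that control SREBP-2, the transcription factor that drives most of them, were examined for acetylation of lysine 9 of histone H3 (H3K9ac), which marks promoters and enhancers in use. The 27 genes were a given list of 7 genes of mevalonate and isoprenoid steps, 3 of squalene and lanosterol, 9 of the conversion of lanosterol to cholesterol, 4 of SREBP-2 and its control and 4 of transport, esterification and receptor turnover, out of 21887 protein-coding genes. A peak counted for a gene where it overlapped the gene's RefSeq span extended by 5 kb on each side, or by 40 kb for Insig1, a width that came with the list and just reaches a peak far upstream of that gene.

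The chromatin came from regenerating liver of male C57BL6/J mice aged 2-3 months, taken 12 h after partial hepatectomy (PH, the surgical removal of part of the liver). It was precipitated with an antibody to AcH3K9 and sequenced (ChIP-seq). The series set out to ask what delaying the drop in blood glucose after the operation does to this mark. There were 6 libraries with d22 in their title and 6 with pbs. The treatment entries go against those titles: they read vehicle (1/2 strength PBS) for the d22 libraries and dextrose 22.5% for the pbs libraries. The groups are therefore called by title and each difference is taken as d22 less pbs; which mice received dextrose cannot be told from these records. Whether each library came from an animal of its own is not stated, so the p-values measure the spread between these samples only, part of which may be technical.

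SREBP-2 is made as a precursor held in the membrane of the endoplasmic reticulum by SCAP. When sterols are low, SCAP escorts it to the Golgi, where proteases free the part that enters the nucleus and binds sterol regulatory elements beside CCAAT-box and GC-box factors. When sterols are plentiful, INSIG proteins hold SCAP in the endoplasmic reticulum and transcription of the pathway declines. INSIG1 is itself a target of SREBP, so that the pathway feeds back on itself. In regenerating liver, dividing hepatocytes need cholesterol for new membranes.

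Depth ran from 6343891 tags (d22 4) to 13259411 (pbs 1), of which 16.4 to 26.6% lay in peaks, and 11 libraries had 26352 to 30780 peaks while d22 4 had 44585. Of the cell type lists, 9 of 9 hepatocyte markers had a peak in all 12 libraries, with a summed level of 2242 to 2874 counts scaled to a common library size (CPM, counts per 1000000 tags in peaks) in d22 and 2712 to 3239 in pbs. Of the endothelial markers 4 of 5 did, with sums of 131 to 289 in d22 and 76.7 to 182 in pbs. Among the rest, 1 of 5 macrophage, 0 of 5 stellate and 1 of 5 cholangiocyte markers had one in every library. So did 1 of 4 neutrophil, 1 of 4 lymphocyte and 0 of 4 erythroid markers. No library had a peak at Marco, Des, Krt19, Krt7, Epcam, Spp1, S100a8, S100a9, Ly6g, Cd3e, Ptprc, Hbb-bs or Alas2. The hepatocyte sums ran lower and the endothelial sums higher in d22, with overlap between the groups. Lymphocyte sums were 98.8 to 261 in d22 and 93.9 to 134 in pbs, and erythroid sums 5.15 to 15.1 and 8.20 to 19.0. The part of cell types in the differences below was not tested. In whole liver, fewer cells of a type and less of the mark per cell cannot be told apart.

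Insig1 and Srebf2 were the control genes with the lowest values at their start regions. Hmgcs1 had nearly equal tags in both groups, and Mylip lies on the other side of 0. For these 4 genes the sequences upstream of the start are shown. They are the 250 bases before the first listed start in RefSeq on GRCm38.p6 (the coordinates of mm10), read in the direction of the gene, and all 4 genes lie on the plus strand. Insig1 is at chr5:28071162-28071411, Srebf2 at chr15:82147019-82147268, Hmgcs1 at chr13:119690101-119690350 and Mylip at chr13:45389492-45389741. Capitals mark CCAAT on either strand, so that the reverse reads ATTGG, and the core TCACNCCA of the sterol regulatory element.
Insig1: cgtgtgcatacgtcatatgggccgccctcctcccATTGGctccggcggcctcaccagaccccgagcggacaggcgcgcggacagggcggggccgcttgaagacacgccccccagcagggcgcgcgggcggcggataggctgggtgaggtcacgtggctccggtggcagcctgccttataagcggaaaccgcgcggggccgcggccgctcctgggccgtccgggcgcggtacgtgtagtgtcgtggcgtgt
Srebf2: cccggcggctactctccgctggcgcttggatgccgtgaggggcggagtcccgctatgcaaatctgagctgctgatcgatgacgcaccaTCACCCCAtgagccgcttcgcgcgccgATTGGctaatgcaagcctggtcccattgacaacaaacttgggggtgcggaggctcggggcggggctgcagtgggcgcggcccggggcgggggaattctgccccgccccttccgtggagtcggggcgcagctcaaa
Hmgcs1: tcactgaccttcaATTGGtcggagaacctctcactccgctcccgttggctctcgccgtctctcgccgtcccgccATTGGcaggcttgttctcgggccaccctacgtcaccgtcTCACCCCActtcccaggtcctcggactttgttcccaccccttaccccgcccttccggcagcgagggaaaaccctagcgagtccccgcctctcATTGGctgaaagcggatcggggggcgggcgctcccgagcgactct
Mylip: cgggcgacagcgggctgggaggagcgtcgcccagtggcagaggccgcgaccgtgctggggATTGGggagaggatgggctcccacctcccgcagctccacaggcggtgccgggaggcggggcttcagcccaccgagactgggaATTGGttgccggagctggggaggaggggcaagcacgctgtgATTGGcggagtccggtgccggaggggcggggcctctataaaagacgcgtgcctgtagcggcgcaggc

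Of the 27 genes, 22 had an entry in the sequence table, and the upstream sequences of Fdps, Fdft1, Sqle, Stard4 and Soat2 were not used here. CCAAT stood in 19 of these 22 upstream windows (86.4%), in all but Dhcr7, Scap and Acat2, against 34.5% of 27025 genes and 36.8% of the 9534 genes with an entry and a peak in all 12 libraries. The GC-box letters GGGCGG stood in 18 of 22 (81.8%) against 32.9% and 58.2%. The core TCACNCCA stood in 3 of 22 (Hmgcs1, Msmo1 and Srebf2, 13.6%) against 3.58% and 3.12%, and the palindromic E-box CACGTG in 3 of 22 (Hsd17b7, Sc5d and Insig1, 13.6%) against 6.05% and 8.40%. These are matches of letters on either strand in a window of 250 bases, and 1 stretch can hold matches to more than 1 motif. Only the first listed start of a gene was read, though Pmvk and Scap list 2 and Dhcr7 and Insig2 list 3. At Pmvk the region marked in all 12 libraries lies over the second start, which was not read.

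All 27 genes had a peak in 12 of 12 libraries, as had 11778 of the 21887 protein-coding genes (53.8%). No member was therefore lost by testing only genes marked in every library. For 27 of 27 a region was taken as the gene's own, over a listed start or, for the 5 genes without an entry, the region of the span with the most tags. Per kb of called peak, the own regions lay at a median percentile of 57.2 among 12375 regions marked in all libraries, and 16 of 27 were above the 50th. By called length they lay at a median percentile of 59.6. The 12375 regions include ones away from gene starts, so these ranks may partly follow from how the own regions were picked. The densest were those of Insig2 (41.5 ± 6.31 CPM per kb, SD, n = 12), Ggps1 (40.8 ± 9.17), Hmgcs1 (40.2 ± 13.4), Cyp51 (40.2 ± 5.06) and Srebf2 (39.0 ± 9.25), which do not differ beyond their spread, against a median of 28.2 over all regions. The sparsest were those of Nsdhl (19.4 ± 2.58) and Mylip (21.1 ± 3.54). Pmvk, which encodes phosphomevalonate kinase, had its only region marked in all 12 libraries between 4050 and 6216 bp past the first listed start, over the second.

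Around most of these genes H3K9ac tags had a lower value in d22 than in pbs, and no single gene passed the test across all genes. The values were below 0 at 22 of 27 windows, where 49.0% of all 11778 genes were below 0. The median was -0.15 on the log2 scale, where that of all genes was 0.0033. The list was chosen with earlier results of these data known. The members' shares, here and below, therefore describe them and are no separate test against all genes. With edgeR's quasi-likelihood test, 0 of 27 had an adjusted p under 0.05, where 0.705% of all genes did (51 genes lower, 0.433%, and 32 higher, 0.272%). At an unadjusted p under 0.05 there were 7 of 27 against 10.4% of all genes: 6 lower (Insig1, Scap, Lss, Fdft1, Srebf2 and Cyp51; 5.82% of all genes) and 1 higher (Soat2; 4.63% of all genes). DESeq2 called 2 of 27, Insig1 lower and Soat2 higher, where it called 2.18% of all genes. On library totals edgeR called 1 of 27, Insig1, and 1.90% of all genes.

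The library d22 4, the shallowest and the one with the most peaks, was the lowest of the 6 d22 libraries at 15 of 27 own regions, where it was the lowest at 30.6% of all regions. Without it, 19 of 27 windows were below 0, the median was -0.11 against 0.0021 for all genes, 5 genes had an unadjusted p under 0.05 (4 lower, 1 higher) and 1 was called, Insig1 (-0.38, edgeR adjusted p = 0.0367). Scaling to library totals moved the median of all genes to -0.20 and that of the members to -0.34, with 25 of 27 below 0. Relative to all genes the members were then at -0.14, against -0.15 with the main scaling.

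**Figure D1:**
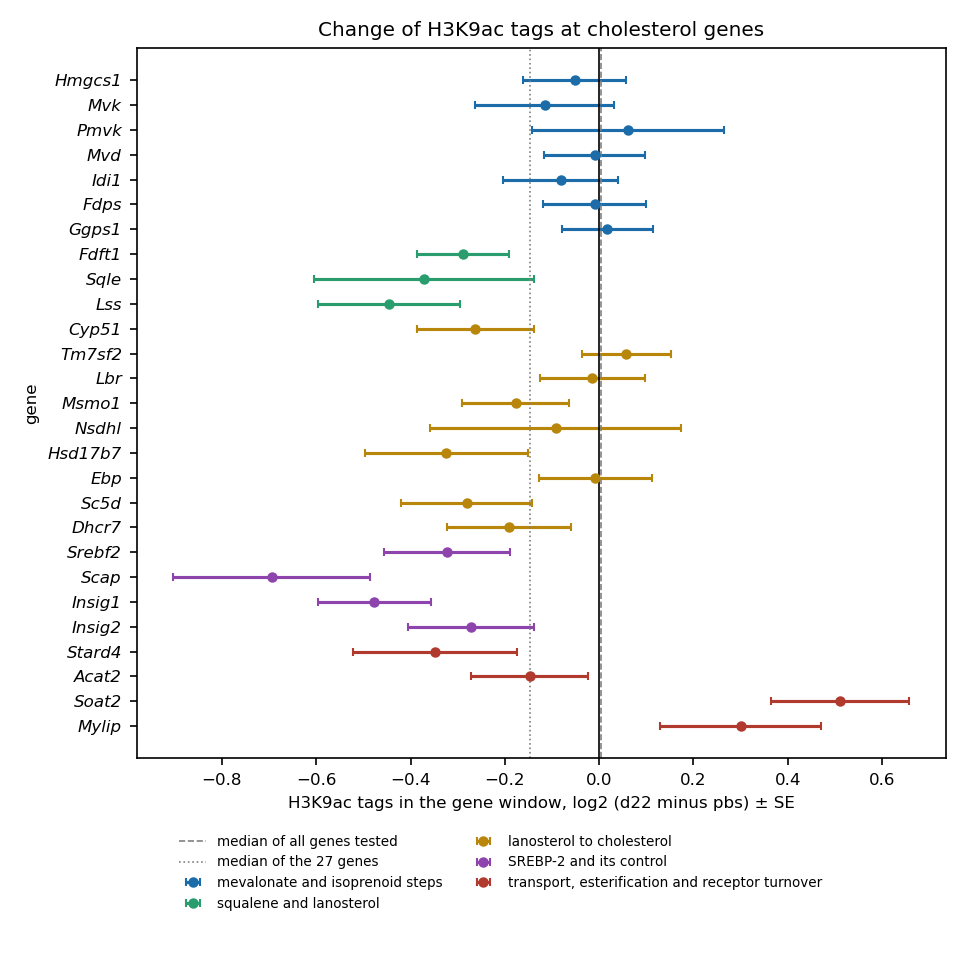
Difference in H3K9ac tags in each gene's window, as log2 of d22 minus pbs from edgeR (x axis) with its standard error (bars), for the 27 genes in the order of their roles (y axis, colours). The dashed line is the median of all genes tested (0.0033) and the dotted line that of the 27 genes (-0.15); the early mevalonate steps sit near 0, the genes of squalene, lanosterol and SREBP-2 control lie to the left, and Soat2 and Mylip to the right.

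In tags, the genes of the mevalonate and isoprenoid steps sat near equality. Of 7 genes 5 were below 0, 0 had an unadjusted p under 0.05, and the median was -0.0095. Hmgcs1, the cytosolic synthase that makes HMG-CoA, had a mean of 108 ± 18.5 CPM (SD, n = 6) in d22 and 112 ± 8.13 in pbs. Mvk, mevalonate kinase, ran from 31.5 over a median of 41.8 to 52.0 CPM in d22 and from 36.7 over 45.3 to 59.0 in pbs. The groups overlapped over most of their range, and the log2 difference was -0.12 (SE 0.15, edgeR adjusted p = 0.841).

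Idi1, the isomerase that makes the 2 building blocks of isoprenoids interchangeable, ran from 51.6 over 66.1 to 79.4 CPM in d22 and from 59.7 over 64.2 to 84.6 in pbs, with a difference of -0.08 (SE 0.12, edgeR adjusted p = 0.866). Here too the libraries of both groups were mixed. Mvd, the decarboxylase that ends the mevalonate steps, was at -0.01, Fdps, which makes farnesyl diphosphate, at -0.01, Ggps1, which makes geranylgeranyl diphosphate for the prenylation of proteins, at 0.02 and Pmvk at 0.06. The signs of these 4 are not fixed: on leaving out 1 library at a time Mvd ran from -0.09 to 0.03, Fdps from -0.08 to 0.06, Ggps1 from -0.04 to 0.08 and Pmvk from -0.07 to 0.15. The windows of Fdps, Mvk, Mvd and Ggps1 also hold marked regions at Rusc1, Mmab, Cyba and Arid4b, whose tags cannot be split from theirs by window.

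At the 3 genes that take farnesyl diphosphate to lanosterol, the window values were lower in d22, with a median of -0.37 and 2 of 3 at an unadjusted p under 0.05. Lss, lanosterol synthase, ran from 31.4 over 39.95 to 54.9 CPM in d22 and from 50.8 over 55.4 to 68.9 in pbs. The d22 libraries 2 and 3 reached into the range of pbs and the other 4 lay below it. The difference was -0.45 (SE 0.15, edgeR adjusted p = 0.259).

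Fdft1, squalene synthase, which commits farnesyl diphosphate to sterols, ran from 84.1 over 102 to 118 CPM in d22 and from 107 over 120.4 to 140.1 in pbs. Every d22 library was below the median of pbs, though d22 2 overlapped the lower pbs libraries. The difference was -0.29 (SE 0.10, edgeR adjusted p = 0.265). Sqle, squalene epoxidase, the oxygen-using step, was at -0.37 (SE 0.23, adjusted p = 0.613), with 71.9 ± 30.8 CPM in d22 and 94.6 ± 7.72 in pbs. The d22 libraries of Sqle spread from 23.7 (d22 4) to 114 CPM, beyond the pbs libraries on both sides, and without d22 4 its difference was -0.21.

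The 9 genes that turn lanosterol into cholesterol lay below 0 in 8 cases, with a median of -0.18, and 1 of 9 (Cyp51) had an unadjusted p under 0.05. Cyp51, the lanosterol demethylase, had a single peak in its window in each library. It ran from 51.2 over 74.1 to 92.3 CPM in d22 and from 78.8 over 87.3 to 101 in pbs. The groups overlapped, 5 of 6 d22 libraries were below the median of pbs, and the difference was -0.26 (SE 0.12, edgeR adjusted p = 0.477).

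Sc5d, a desaturase of the last steps, ran from 90.2 over 117 to 150.2 CPM in d22 and from 112 over 140.3 to 192 in pbs, with a difference of -0.28 (SE 0.14, edgeR adjusted p = 0.503). The d22 values reached from below the lowest pbs library to above the pbs median. Hsd17b7, a reductase of the demethylation complex, was at -0.32, Dhcr7, the reductase of the final step, at -0.19 and Msmo1, the methylsterol oxidase, at -0.18. Nsdhl (-0.09), which works beside Hsd17b7, was weakly marked, at 29.4 ± 13.4 CPM in d22 and 31.7 ± 4.14 in pbs, and turned to 0.08 without d22 4. Ebp, the sterol isomerase (-0.01), Lbr, the lamin B receptor with sterol reductase activity (-0.01), and Tm7sf2, the other such reductase (0.06), were close to 0. Their sign depended on the window, the scaling or single libraries, and the Tm7sf2 window also holds the strong regions of Fau and Znhit2.

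**Figure D2:**
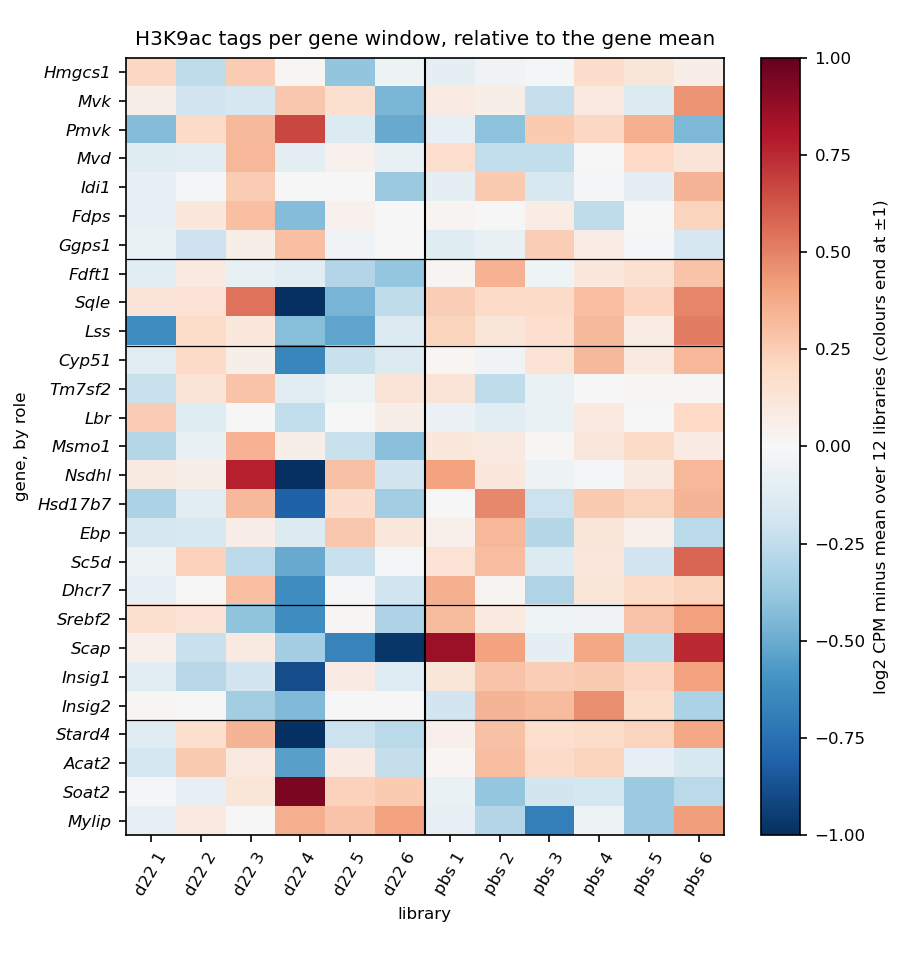
H3K9ac tags in each gene's window by library, as log2 CPM minus the gene's mean over the 12 libraries (colour, ended at 1 in either direction), with the genes in rows by role and the libraries in columns by title. The d22 4 column holds the strongest colours of both signs, among them Sqle, Nsdhl and Stard4 (low) and Soat2 (high), while the pbs columns are mostly warm from Fdft1 to Acat2.

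All 4 genes of SREBP-2 and its control were below 0, with a median of -0.40, and 3 of 4 had an unadjusted p under 0.05. Insig1, the sterol-regulated brake on SCAP, ran from 157 over 259 to 306 CPM in d22 and from 315 over 346 to 382 in pbs. The highest d22 library (d22 5) was below the lowest pbs library (pbs 1), so that the groups did not overlap in this window of 40 kb. With windows of 5 kb for all other genes, 1.25% of all genes did not overlap, and Insig1 was the only one of the 27. The difference was -0.48 (SE 0.12, edgeR adjusted p = 0.0948). The window takes in the far upstream region described below; with a window of 5 kb, as used for the other genes, the difference was -0.41 (edgeR adjusted p = 0.356) and the groups overlapped, with 66.5 to 150.3 CPM in d22 and 139 to 204 in pbs.

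Scap, the escort of SREBP-2, had the largest difference of the 27 genes by value. It ran from 39.1 over 63.0 to 81.5 CPM in d22 and from 64.4 over 101 to 139 in pbs. All 6 d22 libraries were below the pbs median, and pbs 3 and pbs 5 lay within the d22 range. The difference was -0.69 (SE 0.21, edgeR adjusted p = 0.187).

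At Scap the differences in called length and in density had opposite signs. Called length was 3011 ± 1331 bp for d22 against 6054 ± 2323 bp for pbs (log2 -1.05, limma adjusted p = 0.587), while tags per kb of called peak were higher in d22 (0.36, limma adjusted p = 0.999). Its window held a mean of 4.00 peaks in d22 and 6.00 in pbs. The own region over the start differed by -0.22 (adjusted p = 0.646), and of 7 further regions of the window called in 2 to 11 libraries, 6 were called in more pbs than d22 libraries. Srebf2, the gene of SREBP-2, was at -0.32 over its window (SE 0.13, edgeR adjusted p = 0.396), and Insig2, the second INSIG gene, at -0.27 (SE 0.13, edgeR adjusted p = 0.503).

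The 4 genes of transport, esterification and receptor turnover split, with 2 below and 2 above 0. Soat2, which esterifies cholesterol in hepatocytes for storage and lipoproteins, ran from 104 over 125 to 212 CPM in d22 and from 84.2 over 94.3 to 105 in pbs. The d22 values lay above all pbs values but for d22 2, which was just under pbs 1. The difference was 0.51 (SE 0.15, edgeR adjusted p = 0.155). The highest value was d22 4, and without that library the difference was 0.35 (adjusted p = 0.0961). The marked region at Soat2 also lies within 1 kb of the gene Igfbp6, so its tags cannot be assigned to either gene alone.

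Stard4, a carrier of sterols between membranes, ran from 27.5 over 56.4 to 80.3 CPM in d22 and from 65.7 over 73.1 to 83.1 in pbs, with a difference of -0.35 (SE 0.17, edgeR adjusted p = 0.508). The lowest value was again d22 4, and without it the difference was -0.22. Acat2, the cytosolic thiolase that makes acetoacetyl-CoA, was at -0.15, in a window that also takes in a strong region at Acat3. Mylip, the ubiquitin ligase that sends the low-density lipoprotein receptor for degradation and answers to LXR rather than SREBP-2, was at 0.30 (SE 0.17, edgeR adjusted p = 0.567), with 42.1 ± 5.82 CPM in d22 and 33.6 ± 9.01 in pbs.

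A sum of tags over peaks called in each library moves with how much was called. Called length was below 0 at 21 of 27 members and at 63.2% of all genes, with medians of -0.17 and -0.05. By limma 0 of 27 and 0.0% of all genes passed for called length. At an unadjusted p under 0.05 there were 4 members, all lower in d22 (Scap, Insig2, Insig1 and Cyp51), against 5.48% of all genes. Tags per kb of called peak were below 0 at 12 of 27 members and at 31.0% of all genes, with medians of 0.011 and 0.054. Here too 0 of 27 and 0.0% of all genes passed by limma, and 2 members had an unadjusted p under 0.05 (Scap and Soat2, both higher in d22) against 2.78% of all genes. On the density scale the members' median thus lay above 0, though below that of all genes.

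**Figure D3:**
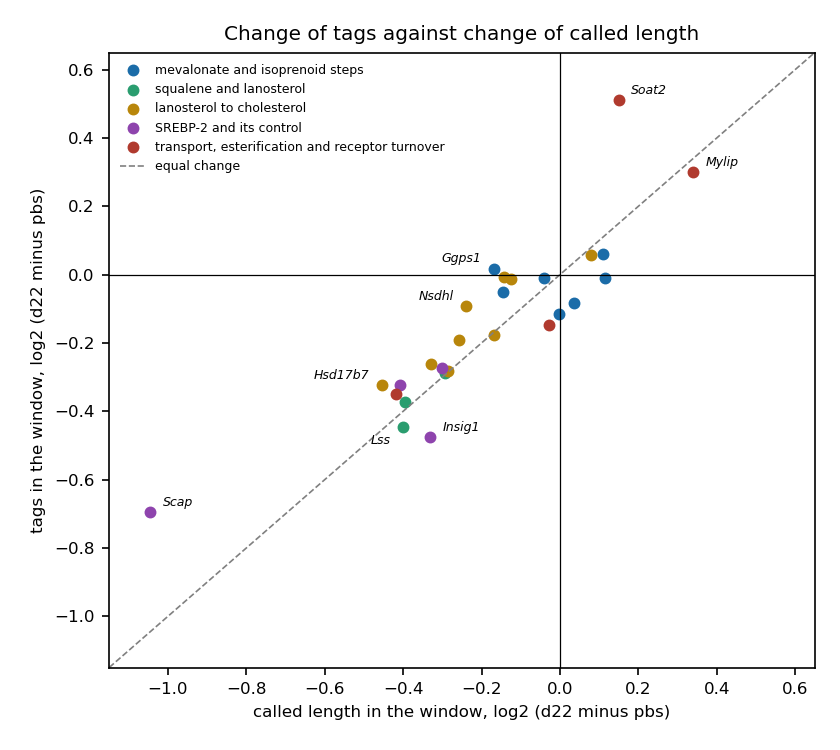
Difference in tags (y axis) against difference in called length (x axis) in each gene's window, both as log2 of d22 minus pbs, 1 point a gene and coloured by role, with the line of equal change dashed. Most points lie near the line, Scap farthest down it (-1.05 in length, -0.69 in tags), while Soat2 (0.15 and 0.51) and Insig1 (-0.33 and -0.48) differ more in tags than in length.

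Splitting the windows into separate regions told a gene's start from its more distant neighbours. It could not do so where the own region lies within 1 kb of another gene. This holds for Mvk, Ggps1, Tm7sf2, Nsdhl, Ebp, Dhcr7 and Soat2. Of the 12375 regions marked in all 12 libraries 1.0% were called by edgeR (124; 68 lower, 0.549%) and 10.9% had an unadjusted p under 0.05 (5.76% lower). None of the 27 own regions was called, 6 had an unadjusted p under 0.05, and 23 of 27 were below 0 (48.5% of all regions), with a median of -0.18 against 0.0057. Without d22 4 there were 4 at an unadjusted p under 0.05 and 21 below 0, with medians of -0.13 and -0.0026.

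The region over the start of Srebf2 (chromosome 15, 82145746 to 82149715) ran from 60.1 over 72.5 to 78.1 CPM in d22 and from 83.7 over 88.5 to 98.3 in pbs. Every d22 library was below every pbs library. The groups did not overlap, in either direction, in 1.33% of all regions and in 2 of the 27. The other of these 2 was Soat2, where every d22 library was above every pbs library. At Srebf2 the difference was -0.34 (SE 0.09, edgeR adjusted p = 0.0768), and -0.32 without d22 4. It passed on library totals (-0.56, adjusted p = 0.0288) and by DESeq2 (-0.34, adjusted p = 0.0279). Both settings called more regions than the main test, and on library totals most of those called were lower in d22. The Srebf2 region was called over 1745 ± 520.1 bp for d22 against 2611 ± 588 bp for pbs, a log2 difference of -0.59. Its tags per kb differed by 0.23 the other way. The authors' fold enrichment went the other way too, with a median of 38.8 in d22 and 31.9 in pbs, against the local background of a different input for each group.

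The other own regions with an unadjusted p under 0.05 were lower at Insig1 (-0.35, adjusted p = 0.314), Stard4 (-0.35, adjusted p = 0.393), Fdft1 (-0.31, adjusted p = 0.411) and Cyp51 (-0.25, adjusted p = 0.428), and higher at Soat2 (0.52, adjusted p = 0.167), all by edgeR. At Hmgcs1, whose upstream sequence holds the sterol element core and 3 CCAAT matches, the region over the start differed by -0.03 (adjusted p = 0.953), with 81.4 to 129 CPM in d22 and 102 to 122 in pbs. For that Hmgcs1 region the authors' fold enrichment was lower in d22, from 27.69 over a median of 32.25 to 48.25. In pbs it ran from 48.39 over 67.75 to 90.84. Over gene windows fold enrichment was lower in d22 at most genes, and each group had an input of its own. At Srebf2, with the same core and 1 CCAAT match, the region over the start differed by -0.34 in tags. At Mylip, with 3 CCAAT matches and no core, the region over the start was at 0.16 (adjusted p = 0.811).

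**Figure D4:**
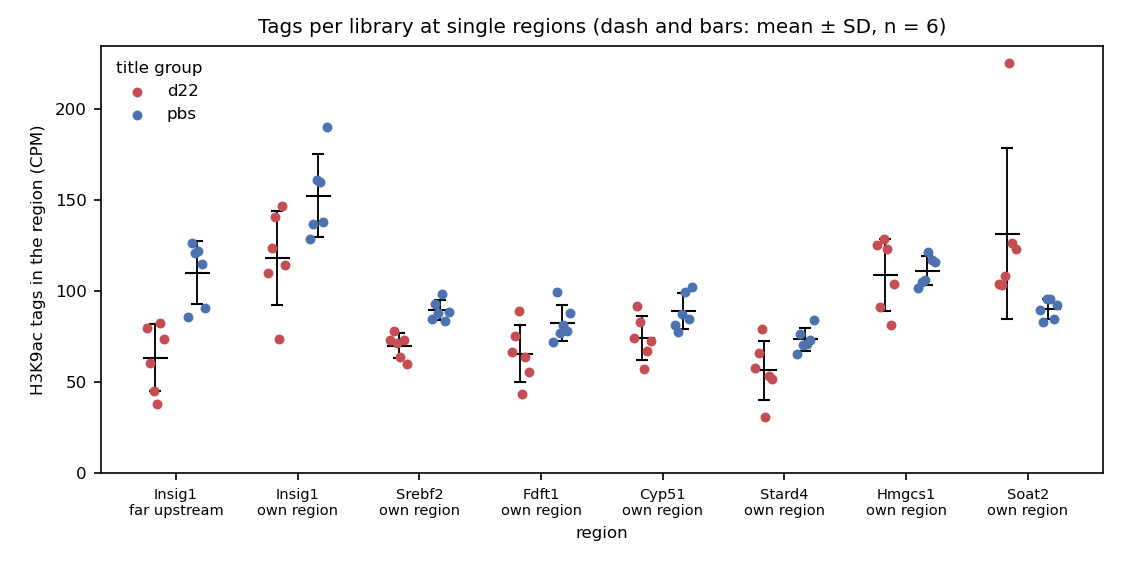
H3K9ac tags in CPM (y axis, from 0) in single regions (x axis), 1 point a library, with the mean and SD of each title group (n = 6). The far upstream region of Insig1 (38.3 to 82.8 against 85.8 to 126), the Srebf2 region (60.1 to 78.1 against 83.7 to 98.3) and the Soat2 region do not overlap between groups; the pbs libraries of the Hmgcs1 region lie within the range of d22, and d22 4 is the single high point of Soat2.

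The members had 36 regions marked in all 12 libraries, 27 own and 9 others, and 1 of these was called. It lies on chromosome 5 from 28030861 to 28034745, between 40551 and 36667 bp upstream of the start of Insig1, inside the span of the long non-coding RNA gene Gm35223. The nearest protein-coding gene is Insig1. In d22 it ran from 38.3 over 67.3 to 82.8 CPM and in pbs from 85.8 over 118 to 126. No d22 library reached the lowest pbs library, and d22 4 and d22 3 were the lowest.

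The difference at this far region was -0.77 (SE 0.165, edgeR adjusted p = 0.0344), from means of 63.5 ± 18.6 CPM in d22 and 110.3 ± 17.4 in pbs. By DESeq2 the adjusted p was 0.00196 and on library totals 0.000929, settings that both called more regions than the main test. The call is marginal over libraries: it was lost without d22 2 (adjusted p = 0.0804), d22 3 (0.0657), d22 6 (0.0521), pbs 2 (0.0819), pbs 3 (0.0754), pbs 4 (0.0755) or pbs 5 (0.0763), while the value stayed between -0.86 and -0.68 on leaving out any 1 of the 12. Called length (2452 ± 502 bp against 3360.0 ± 285 bp) and tags per kb (log2 -0.36) were both lower in d22. The median of the authors' fold enrichment was 23.4 in d22 and 46.2 in pbs. Over gene windows the highest fold was also lower in d22 at 10345 of 11778 genes, with a median log2 difference of -0.31. Each group was called against an input of its own.

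The same chromosome stretch holds a region between the far one and the gene, from 18084 to 14795 bp upstream, which was at -0.06 (adjusted p = 0.936), with 53.0 ± 14.2 CPM in d22 and 55.6 ± 11.6 in pbs. The 3 regions thus differed by -0.77, -0.06 and, at the start, -0.35. Ratios within a library need no scaling between libraries. They were compared by two-sided exact permutation tests over 924 splits, for 4 ratios of tags and the same 4 of tags per kb. Each set was adjusted by itself. The far region was singled out by its call in these same libraries, so its ratios are no separate test of that difference. The log2 ratio of the far to the middle region was 0.26 ± 0.32 (SD, n = 6) in d22 and 1.00 ± 0.52 in pbs, a difference of -0.74 (exact p = 0.0195, adjusted p = 0.0779). That of the far region to the start differed by -0.45 (exact p = 0.0584, adjusted p = 0.117), and that of the middle region to the start differed by 0.29 (exact p = 0.149, adjusted p = 0.199). Per kb of called peak, the differences were -0.12 for far to middle (exact p = 0.513, adjusted p = 0.684) and -0.16 for far to start (exact p = 0.145, adjusted p = 0.29). The ratio of the Srebf2 to the Insig1 start region differed by 0.03 in tags (exact p = 0.816) and by 0.44 per kb (exact p = 0.0346, adjusted p = 0.139). Both had the lowest values among start regions of the control genes in these same libraries, so their ratio is no separate test either.

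**Figure D5:**
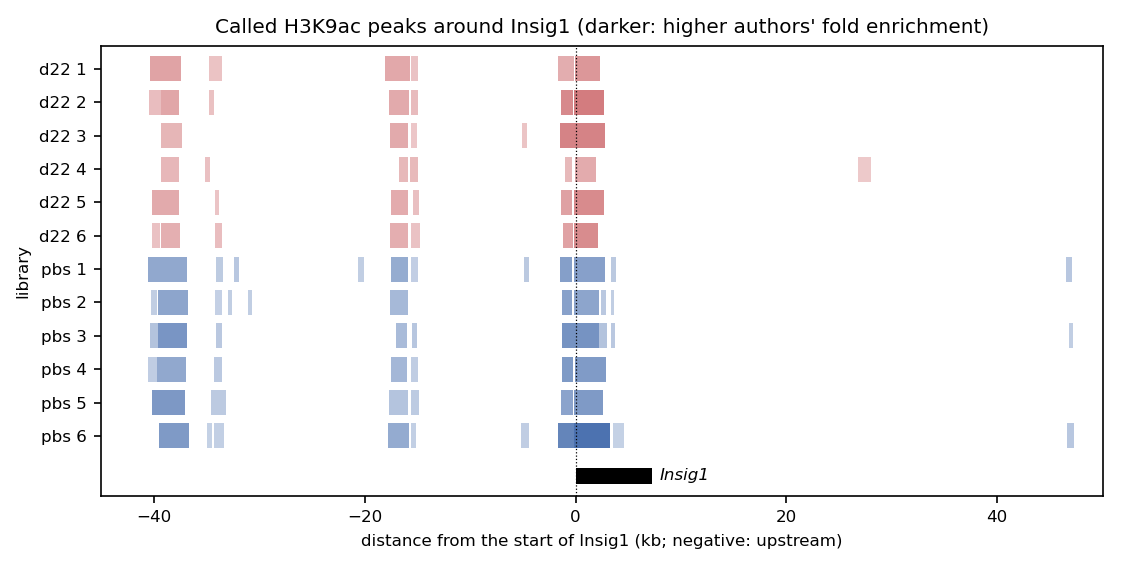
Called H3K9ac peaks around Insig1 in each library (rows), by distance from the start of the gene in kb (x axis, upstream to the left), with darker bars for a higher fold enrichment as the authors gave it. The far upstream, middle and start regions are called in all 12 libraries. The darkest far bar of each pbs row is darker than any far bar of the d22 rows, with a longer mean called length in pbs (3360.0 against 2452 bp). Fold enrichment was lower in d22 at most genes and was taken against a different input for each group.

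Further regions in the members' windows were called in only some libraries. Of 37 called in 2 to 11 libraries, 24 were in more pbs than d22 libraries (64.9%), 9 in more d22 and 4 in equal numbers, whereas 41.0% of all 18335 such regions were in more pbs libraries. As d22 4 has the most peaks, the counts were also taken without it, by share of libraries: 24 of 34 were then more frequent in pbs and 10 in d22, against 50.8% in pbs over all regions. Scap (6 of 7), Insig1 (4 of 4) and Insig2 (4 of 5) held 14 of the 24, Srebf2 1 of 3. Examples are a stretch of the Insig1 gene 3322 to 4593 bp past its start, called in 0 d22 and 4 pbs libraries. One in Scap, 17017 to 18273 bp past its start, was called in 0 and 3. Among those that went the other way, one in Scap, 24001 to 25726 bp past its start, was called in 5 d22 and 2 pbs libraries. One in the Srebf2 window, 59299 to 60463 bp past its start, was called in 4 and 1. A peak absent from a list is no count of 0, so these are descriptions of the calls.

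Genes around the pathway were measured in 4 further lists, chosen, like the members, with earlier results of these data known. Of 11 genes of SREBP processing and turnover, 0 were called and 2 had an unadjusted p under 0.05 (1 higher, 1 lower), with a median of -0.02. The smallest p was that of Rnf139, a ubiquitin ligase of the endoplasmic reticulum (-0.23, adjusted p = 0.313). Of 12 genes of other uses of isoprenoids, such as prenylation, dolichol and ubiquinone, 0 were called and 0 had an unadjusted p under 0.05, and the median was 0.046, with Pggt1b, a subunit of the geranylgeranyl transferase, at 0.22 (adjusted p = 0.526).

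Of 16 genes of oxysterols, LXR and efflux, 14 were tested and 0 called, with 4 at an unadjusted p under 0.05 (1 higher, 3 lower) and a median of -0.03. Npc1, which exports cholesterol from lysosomes, had the smallest p, with 190.3 ± 64.6 CPM in d22 and 295 ± 52.7 in pbs (-0.63, adjusted p = 0.183). Soat1, the esterifying enzyme of other tissues, and Ch25h had a peak in 7 and 8 of 12 libraries and were not tested.

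Of 10 other SREBP targets, among them genes of fatty acid synthesis driven by SREBP-1c, 8 were above 0 with a median of 0.23. At an unadjusted p under 0.05 there were 4, all higher in d22, where 4.63% of all genes were higher. After adjustment 2 were called higher in d22, where 0.272% of all genes were. As the list was chosen with earlier results of these data known, these shares are no separate test. Aacs, which activates acetoacetate for lipid synthesis, was at 397 ± 65.9 CPM in d22 and 208 ± 27.4 in pbs (0.93, edgeR adjusted p = 0.00221), and Lpin1, a phosphatidate phosphatase, at 618 ± 93.5 and 370.5 ± 83.6 (0.74, adjusted p = 0.0249). Srebf1, the gene of SREBP-1, was at 0.25 (adjusted p = 0.523). The difference between this list and the members was not tested.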

How the data were processed

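H3K9ac peaks of 12 libraries (6 titled d22, 6 titled pbs) were analysed; the pooled inputs were not analysed here. Per the submitters' processing notes, the tools were CASAVA 1.8, Novoalign and MACS 1.4.2, with mm10. Per the file headers, the authors called each library alone with a p-value cutoff of 1e-05, against 1 pooled input per title group (12526421 tags for d22, 10409931 for pbs), so that input and group cannot be told apart. The deposited columns were the count of tags per peak, a score that is a multiple of the negative log10 p-value, the enrichment over local background as a fold (ratio) and a false discovery rate in percent. The count was the main measure, the score and the fold served as alternatives, and the false discovery rate was not used.

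A gene's tags were summed over all its peaks in the window. Regions are merges of overlapping peaks of the 12 lists. Only the 11778 genes and 12375 regions with a peak in all 12 libraries were tested, since a missing peak is no count of 0. The fits were edgeR 4.0.16 (quasi-likelihood, TMM, group only) in R 4.3.3 on counts, and limma 3.58.1 on log2 length and log2 tags per kb, with Benjamini-Hochberg adjustment over all genes or regions at 0.05. CPM are TMM-scaled tags per 1000000 tags in peaks. Presence of a peak was compared by Fisher's exact test over 2025 genes marked in 2 to 10 libraries, none of them a member: 0 were called and 11 had an unadjusted p under 0.05. Ratios were tested with SciPy 1.17.1. DESeq2 1.42.0 and other windows, scalings, score minimum and omitted libraries were alternatives; the 5 kb window of Insig1 and the unadjusted counts without d22 4 were chosen after seeing the data.

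All 27 genes are accounted for by role; values for single groups of libraries were given for the 2 genes of each role with the smallest p, and of each further list the called genes or the 1 with the smallest p were named. Regions, Insig2, Mylip, Hmgcs1 and Sqle were described beyond that rule. The members and lists were chosen with earlier results of these data known. On simulated data for the 11778 gene windows, 65 of 100 genes changed 1.5-fold and 96 of 100 changed 2-fold were recovered. There were 10 false calls among the unchanged genes. The simulated counts took their spread from the trend over all genes, not from each gene, and peak calling was not simulated. No 2 libraries were duplicates (chi-square per degree of freedom 3.32 to 14.87 over 66 pairs). Gene names, spans and upstream sequences are from RefSeq tables of GRCm38.p6.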

Additional observations from a re-analysis of the deposited data

Results flagged for a closer look

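In the own regions of the 27 genes and the far upstream region of Insig1, 56 groups of 6 libraries were searched for a library far from the others, by Dixon's ratio of the gap to the range, and 4 were found; chance gives about 1 in 20 groups. At Sqle, pbs 6 was the highest of the pbs libraries with 111 CPM, the others lying between 84.9 and 92.7. At Dhcr7, d22 4 was the lowest of the d22 libraries with 29.8 CPM, the others lying between 60.6 and 75.7. At Acat2, d22 4 was the lowest with 33.2 CPM, the others lying between 57.9 and 70.4. At Soat2, d22 4 was the highest with 225 CPM, the others lying between 103 and 126. The library d22 4 is the shallowest and has the most peaks, and its part in these values was not tested.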

How the results depend on the processing

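Against 83 genes called (32 higher, 51 lower), library totals gave 224 (9 higher, 215 lower), DESeq2 237 (87 and 150), the peak with the most tags 12 and the authors' highest fold enrichment, by limma, 2767 (146 and 2621). Leaving out 1 library gave 37 to 110, with 46 without d22 2, 41 without d22 6, and 44, 47, 40 and 37 without pbs 2, 3, 4 and 5. Members called rose from 0 to 1 on library totals (1.90% of all genes) and to 2 by DESeq2 (2.18% of all genes). By fold enrichment 12 members were called, all lower, where 2767 of 11778 genes were called, 2621 of them lower. On leaving out 1 library 0 to 1 members were called. The members' median moved from -0.15 to -0.34 on library totals (all genes -0.20) and -0.46 by fold enrichment (all genes -0.31), and ran from -0.23 to -0.11 on leaving out 1 library. Regions called went from 124 to 454 on library totals (26 higher, 428 lower), 272 by DESeq2 (114 and 158), and 64 to 154 on leaving out 1 library. For called length leaving out 1 library gave 0 to 1 genes, and for tags per kb library totals gave 10.

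The titles share numbers 1 to 6, but same-numbered libraries did not deviate together (correlation -0.049 to 0.18 over gene windows), and 2 of 6 d22 libraries correlated best with their own number. With the replicate block, 65 genes, 0 members and 127 regions were called, tags per kb gave 4 genes, and the far upstream region of Insig1 was at -0.78 and no longer passed (edgeR adjusted p = 0.0597).

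Some values changed sign. On library totals Pmvk was at -0.13, Ggps1 at -0.19 and Tm7sf2 at -0.16. With a score of at least 100, Pmvk was at -0.0079, Mvd at 0.015, Fdps at 0.042, Lbr at 0.011 and Ebp at 0.0022. With 1 kb on each side Tm7sf2 was at -0.026 and Ebp at 0.00015, and with 10 kb Tm7sf2 at -0.024. With the top peak Pmvk was at -0.0063 and Lbr at 0.19. By fold enrichment Pmvk was at -0.35, Ggps1 at -0.091, Tm7sf2 at -0.28, Srebf2 at 0.37 and Mylip at -0.19. On leaving out 1 library Mvd ran from -0.085 to 0.029, Fdps from -0.077 to 0.061, Ebp from -0.065 to 0.065, Lbr from -0.073 to 0.029, Pmvk from -0.071 to 0.15, Ggps1 from -0.0398 to 0.077, Nsdhl from -0.30 to 0.082 and Hmgcs1 from -0.11 to 0.014. The cause of these changes was not tested. Tags per library set the counting error: Nsdhl had 10 to 120.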
